A study of Mus musculus with 36 samples.

Results

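The genes described here are 10 precursors of secreted signalling proteins that neurons are known to regulate with activity: the granin-type proteins Vgf, Scg2, Chga and Chgb, the neuropeptide precursors Penk, Tac1, Adcyap1, Nts and Crh, and Inhba, the activin subunit. They were chosen by symbol from the 24058 genes of the deposited tables, and all 10 were found. The libraries came from CA3/CA1 mini-slices, hippocampal slices of adult C57BL/6 mice from which the dentate gyrus had been cut away. All mice were double heterozygotes for RiboTag and Camk2a-Cre, so that Cre, driven by the Camk2a promoter, puts an HA tag on the ribosomes (on Rpl22) of excitatory neurons. LTP slices received forskolin and then high K+ and Ca2+ with forskolin in 0 Mg2+ solution (a chemical form of long-term potentiation), basal slices received the DMSO vehicle, and both were frozen at 30, 60 or 120 min. TRAP libraries hold RNA pulled down with the tagged ribosomes and Total libraries hold RNA of all cells of the same homogenate. With 3 replicates of each of the 12 groups there were 36 libraries, each replicate pooled slices of several mice, and each basal replicate shared its animals with the LTP replicate of its number.

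Neuropeptides and granins are made as larger precursors, cut by convertases in the secretory pathway, stored in dense-core vesicles and released after strong or repeated firing. Many of their genes carry a cAMP response element in the promoter, to which CREB binds after a rise in cAMP or calcium, and are classic late response genes of neurons. Inhba is the subunit of activin A, a secreted ligand of the TGF-beta family that acts on dendritic spines and is induced in hippocampus by synaptic activity.

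The libraries held 21265627 to 52459224 counts on genes. Rn45s, the ribosomal RNA precursor, took 40.6 to 61.4% of the counts in the 3 TRAP basal libraries at 120 min, against 0.130 to 1.58% in the TRAP LTP libraries of that time, and left 10146353 to 16753607 other counts in each of those basal libraries. The TRAP LTP libraries of that time held 33042265 to 35267718 other counts. In TRAP at 120 min the Rn45s share and depth therefore cannot be told apart from the treatment. The treatment labels held in the 5 immediate early genes Arc, Fos, Npas4, Junb and Egr2: of their 30 tests of LTP against basal, 29 were called higher, with log2 fold changes of 0.60 to 3.13 over all 30, the exception being Fos in Total at 30 min. A gene was called where its false discovery rate was under 0.1 and its absolute log2 fold change above 0.4. Levels are CPM, a gene's counts relative to the size of its library, scaled over the 12 libraries of a time. Of the 5 markers of dentate granule cells, none was at 0, and their summed level was 129 to 283 CPM in LTP and 121 to 269 CPM in basal libraries. In TRAP, Dsp of these was called higher at 30 min (0.55 ± 0.13, adjusted p 0.0973) and Lct lower at 60 min (-0.51 ± 0.12, adjusted p 0.0987). Choroid plexus markers summed to 123 CPM in 1 Total basal library at 60 min. The lowest library of that group had 35.7 CPM, and the Total LTP libraries of that time had 33.9 to 36.7 CPM. Kl, the most abundant of these markers, was called higher in TRAP than in Total basal libraries at that time (log2 0.66 ± 0.07). The sum thus does not measure choroid plexus alone. In bulk samples, fewer cells of a type and less RNA per cell cannot be told apart.

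Per kilobase (kb) of exon, Chgb stood highest of the 10 genes, with a mean of 265.6 CPM per kb in TRAP LTP and 220.4 in TRAP basal libraries (SD 35.4 and 29.7, n = 9 each over the 3 times), and 299.1 in Total LTP and 293.4 in Total basal libraries (SD 29.8 and 25.7). Scg2 followed (179.5 CPM per kb in TRAP LTP, 151.5 in TRAP basal, 133.3 in Total LTP and 124.4 in Total basal libraries), then Vgf (87.2, 70.8, 55.9 and 45.5 in the same order). By these means over the 3 times, the order in TRAP libraries went on with Penk, Chga, Nts, Inhba, Crh, Adcyap1 and Tac1. In Total libraries it went on with Chga, Penk, Nts, Tac1, Inhba, Crh and Adcyap1. Within a time, neighbours whose ranges overlapped, and which thus did not differ beyond the spread of their 3 libraries, were in TRAP basal slices Vgf and Penk at 60 and 120 min, Inhba and Crh at 30 and 60 min, and Adcyap1 and Tac1 at 60 and 120 min. In Total basal slices they were Nts and Tac1 at 60 min, and Inhba and Crh at 30 and 60 min. In TRAP LTP slices they were Crh and Adcyap1 at 30 min, and Adcyap1 and Tac1 at 60 and 120 min. In Total LTP slices they were Nts and Tac1, and Inhba and Crh, each at 30 and 60 min. Tac1 was last in TRAP, at 0.14 CPM per kb in LTP and in basal libraries, and stood at 1.85 in Total LTP and 1.55 in Total basal libraries. Counts were low for Crh (4 to 87 in a library), Tac1 (5 to 313), Adcyap1 (7 to 76), Inhba (48 to 460) and Nts (50 to 665). All 10 genes still passed the filter on low counts in every comparison.

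**Figure D1:**
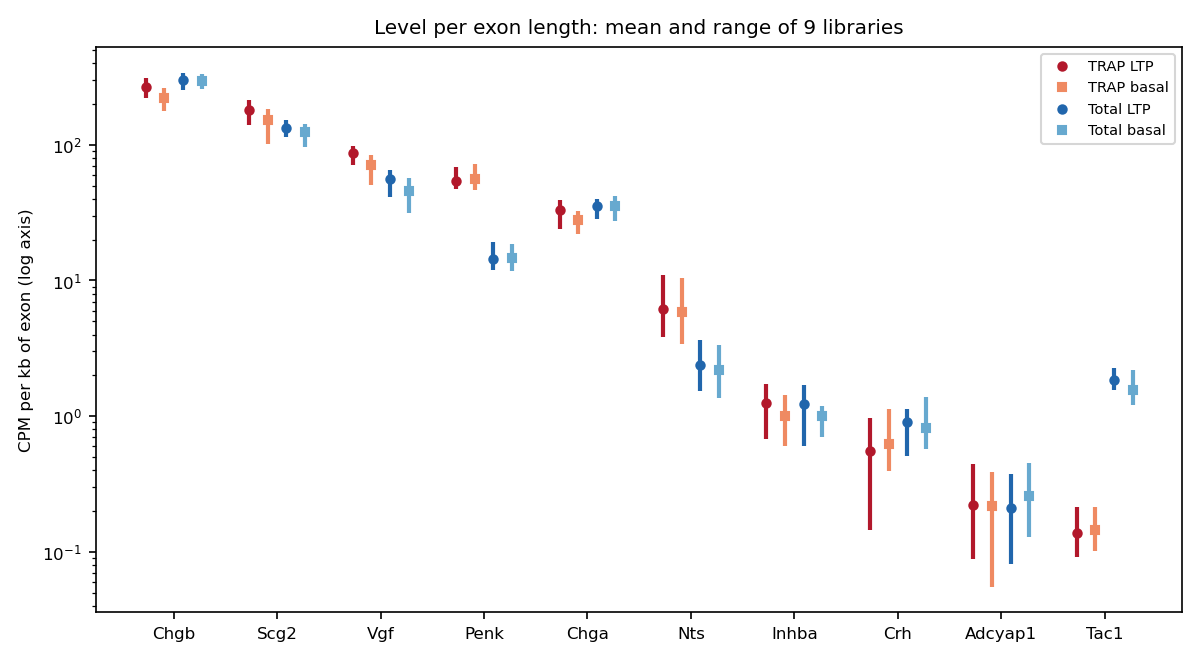
Levels of the 10 genes in CPM per kb of exon on a log axis, in the order of TRAP basal libraries. Points are means and bars the lowest and highest of 9 libraries for TRAP LTP, TRAP basal, Total LTP and Total basal, and Penk and Nts lie higher in TRAP while Tac1 lies higher in Total.

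Promoter sequence is shown for 4 genes because the treatment holds forskolin, which raises cAMP, and the cAMP response element is the site at which CREB acts. RefSeq (GRCm38.p6) gave windows of 250 bases before to 50 bases after a start for 7 of the 10 genes, Scg2, Chga, Chgb, Tac1, Inhba, Adcyap1 and Nts. Both strands were searched for the full element TGACGTCA and for the shorter motif TGACG, which the full element contains. The shorter motif reads CGTCA where it lies on the other strand. The full element was in 588 of 32851 windows of this length in the table (1.79%) and in the windows of Scg2 and Chgb. The shorter motif was in 6837 windows (20.8%) and in those of each of the 7 genes but Inhba. Below, capitals mark the motif, and each line gives 30 bases on the strand of the gene.
Scg2: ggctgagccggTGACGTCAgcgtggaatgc
Chgb: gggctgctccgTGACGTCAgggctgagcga
Chga: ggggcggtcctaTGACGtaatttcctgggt
Tac1: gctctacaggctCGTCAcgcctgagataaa
The Scg2 stretch is chr1:79440076-79440105 on the minus strand, with the motif beginning 68 bases before the RefSeq start. For Chgb it is chr2:132781559-132781588 on the plus strand, 72 bases before the start, for Chga chr12:102554885-102554914 on the plus strand, 44 bases before the start, and for Tac1 chr6:7555006-7555035 on the plus strand, 43 bases before the start, with another match 197 bases before it. The GENCODE models of Scg2, Chgb and Tac1 begin farther upstream than these RefSeq starts and include the printed stretches. A match describes the letters and is no evidence of binding.

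The question put to each gene was whether LTP induction changed its RNA on the ribosomes of excitatory neurons, or in the tissue, at each time. By edgeR, 2 of the 10 genes were called in any of the 6 comparisons of LTP against basal, both in Total at 120 min: Inhba and Tac1, which were higher in LTP slices. Among all genes tested there, 1.27% were called higher and 0.124% lower. None of the 10 was called in TRAP at 30 min (background 0.365% higher and 0.0351% lower), at 60 min (0.410% and 0.0614%) or at 120 min (1.37% and 0.239%). In Total none was called at 30 min (0.119% and 0.00664%) or at 60 min (0.205% and 0.0128%). At an unadjusted p under 0.05 the numbers of the 10 were 3, 5 and 4 in TRAP and 1, 1 and 5 in Total at 30, 60 and 120 min. The share of all genes under that p is not given, here or below. These counts thus do not measure a response of the set. DESeq2 called Vgf in TRAP at 120 min beside the same 2 genes in Total. With the replicate as a block, Nts was called in TRAP at 60 min and Vgf and Inhba in TRAP at 120 min, beside the same 2 genes in Total. The background shares above are those of edgeR without the block. Shares of all genes called by DESeq2 or with the block are not given. The median log2 fold change of the 10 genes in TRAP was 0.06, 0.20 and 0.20 at 30, 60 and 120 min, with medians over all genes of 0.00, 0.00 and -0.01. In Total it was 0.03, 0.03 and 0.21, with medians over all genes between -0.001 and 0.0002. The 10 genes were chosen with earlier results of these data known, so these medians do not test the set.

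**Figure D2:**
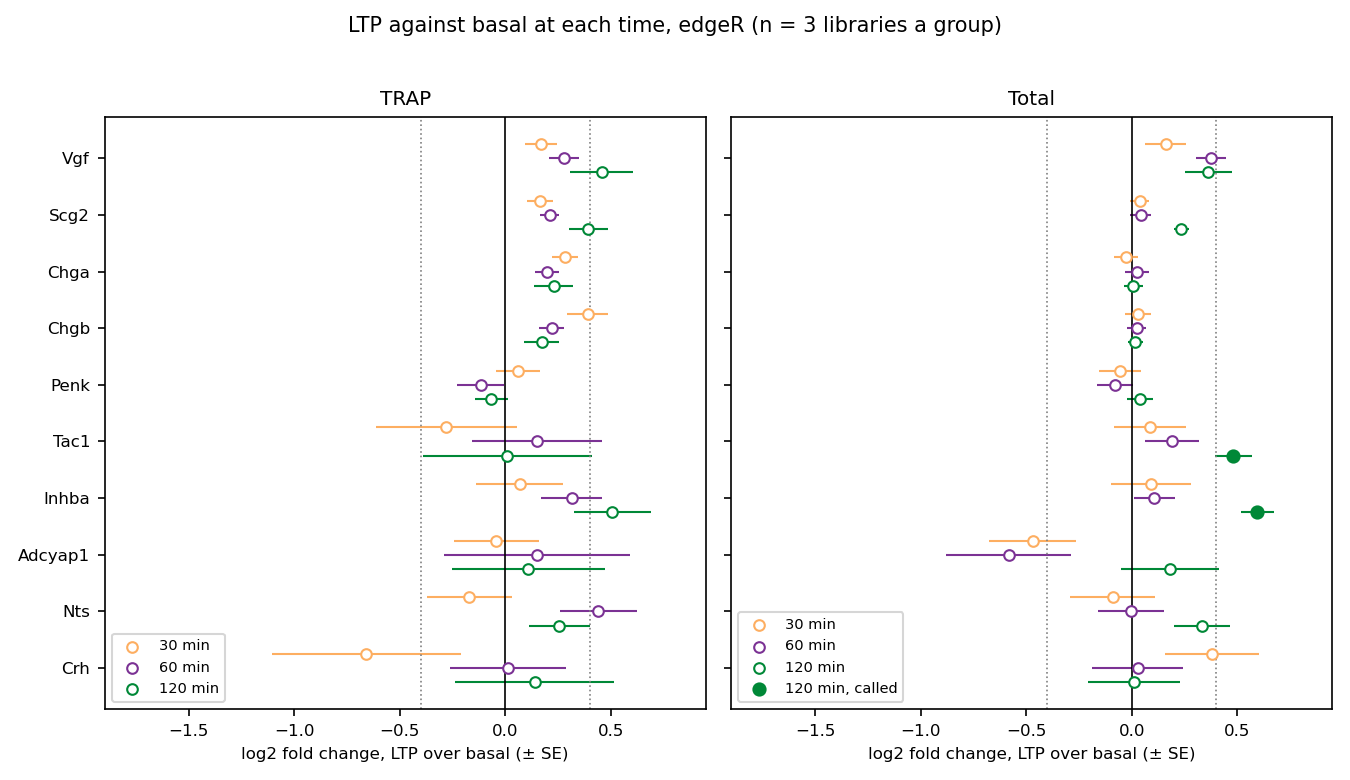
Log2 fold change of LTP over basal with its SE for the 10 genes at 30, 60 and 120 min in TRAP and Total (edgeR, 3 libraries a group). Filled points were called, dotted lines mark 0.4 in either direction, and only Tac1 and Inhba at 120 min in Total are filled, at 0.48 and 0.60.

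Vgf (chr5:137026392-137033351, plus strand) encodes a precursor whose peptides act on synaptic strength and energy balance. In TRAP at 120 min it had 283, 293 and 211 CPM in LTP libraries, against 197, 223 and 150 CPM in basal libraries. The third replicate was the lowest of both groups, so that the groups overlapped although each LTP library lay above the basal library of its own animals. The log2 fold change was 0.46 ± 0.15 (SE, n = 3 each), with an adjusted p of 0.221 by edgeR's quasi-likelihood test, and with the replicate as a block it was 0.46 with an adjusted p of 7.42e-06, which is past the threshold. Without replicate 3 of the LTP libraries it was 0.59 and called. In TRAP at 60 min Vgf had 259, 234 and 279 CPM in LTP libraries, against 218, 198 and 221 CPM in basal libraries. These groups did not overlap (log2 fold change 0.28 ± 0.07, adjusted p 0.135). At 30 min it had 268, 267 and 239 CPM in TRAP LTP libraries, against 251, 235 and 203 CPM in TRAP basal libraries (0.17 ± 0.08, adjusted p 0.388). Vgf was the one member higher in LTP than in basal slices in all 9 replicate pairs of TRAP and all 9 of Total. TRAP and Total pairs share homogenates and are thus not separate samples of animals. The share of all genes with such counts of pairs is not given, here or below.

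In Total at 60 min Vgf had 188, 185 and 183 CPM in LTP libraries, against 138, 162 and 128 CPM in basal libraries, with no overlap. Its false discovery rate was 0.0486 there, but the log2 fold change of 0.37 ± 0.07 stayed under the size of 0.4. Without replicate 2 of the basal libraries it was 0.47 and called. At 30 min the groups overlapped, with 194, 184 and 155 CPM in Total LTP and 164, 170 and 139 CPM in Total basal libraries (0.16 ± 0.10, adjusted p 0.777). At 120 min Total libraries held 152, 133 and 123 CPM in LTP slices, against 113, 110 and 93.7 CPM in basal slices (0.36 ± 0.11, adjusted p 0.301), again without overlap. Background for non-overlap was 9.58% of genes with all LTP libraries above basal in TRAP at 60 min, 4.46% in Total at 60 min and 9.77% in Total at 120 min.

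Scg2 (chr1:79434669-79440120, minus strand), secretogranin II, is the precursor of secretoneurin. Its LTP libraries lay above all basal libraries in TRAP at every time. At 120 min the values were 412, 350 and 360 CPM in TRAP LTP, against 292, 253 and 304 CPM in TRAP basal libraries. At 60 min they were 459, 481 and 487 CPM in TRAP LTP, against 398, 419 and 414 CPM in TRAP basal libraries, and at 30 min 540, 473 and 499 CPM in TRAP LTP, against 455, 434 and 460 CPM in TRAP basal libraries. The log2 fold changes were 0.17 ± 0.06, 0.21 ± 0.05 and 0.39 ± 0.09 at 30, 60 and 120 min, with adjusted p of 0.267, 0.0757 and 0.0688. Those at 60 and 120 min passed the false discovery rate and missed the size of 0.4. At 120 min Scg2 was called without a filter on low counts (0.41), in the joint fit of the 12 libraries of that time (0.40) and without replicate 3 of the basal libraries (0.45). Background for non-overlap in TRAP was 9.98% at 30 min and 11.4% at 120 min. In Total Scg2 stood apart only at 120 min, with 304, 293 and 286 CPM in LTP and 266, 241 and 243 CPM in basal libraries (0.24 ± 0.04, adjusted p 0.000306, under the size). In Total at 30 min the log2 fold change was 0.04 ± 0.05 and at 60 min 0.04 ± 0.05.

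Chga (chr12:102554969-102565028, plus strand) and Chgb (chr2:132781278-132795079, plus strand) encode the chromogranins, which concentrate cargo in the dense-core vesicle. Chga had 101, 107 and 101 CPM in TRAP LTP libraries at 30 min, against 84.5, 90.1 and 80.0 CPM in TRAP basal libraries. Chgb had 834, 729 and 807 CPM in TRAP LTP libraries at 30 min, against 627, 506 and 677 CPM in TRAP basal libraries. Neither pair of groups overlapped. Chga reached 0.28 ± 0.06 (adjusted p 0.0749, under the size) and Chgb 0.39 ± 0.10 (adjusted p 0.120), and Chgb was called at 0.48 without replicate 3 of the basal libraries. The summed dentate granule cell markers of that comparison were at 246 to 283 CPM in LTP and 188 to 252 CPM in basal libraries, and their part in these values was not tested. At 60 min both groups of both genes were again apart, with log2 fold changes of 0.20 ± 0.06 for Chga and 0.22 ± 0.06 for Chgb (adjusted p 0.187 and 0.159). At 120 min the groups of both genes overlapped narrowly, at 0.23 ± 0.09 for Chga and 0.17 ± 0.08 for Chgb (adjusted p 0.331 and 0.433). In Total the 6 log2 fold changes of the 2 genes lay between -0.03 and 0.03. In replicate pairs, Chga was higher in LTP slices in 9 of 9 TRAP pairs and 5 of 9 Total pairs, and Chgb in 9 of 9 and 6 of 9.

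**Figure D3:**
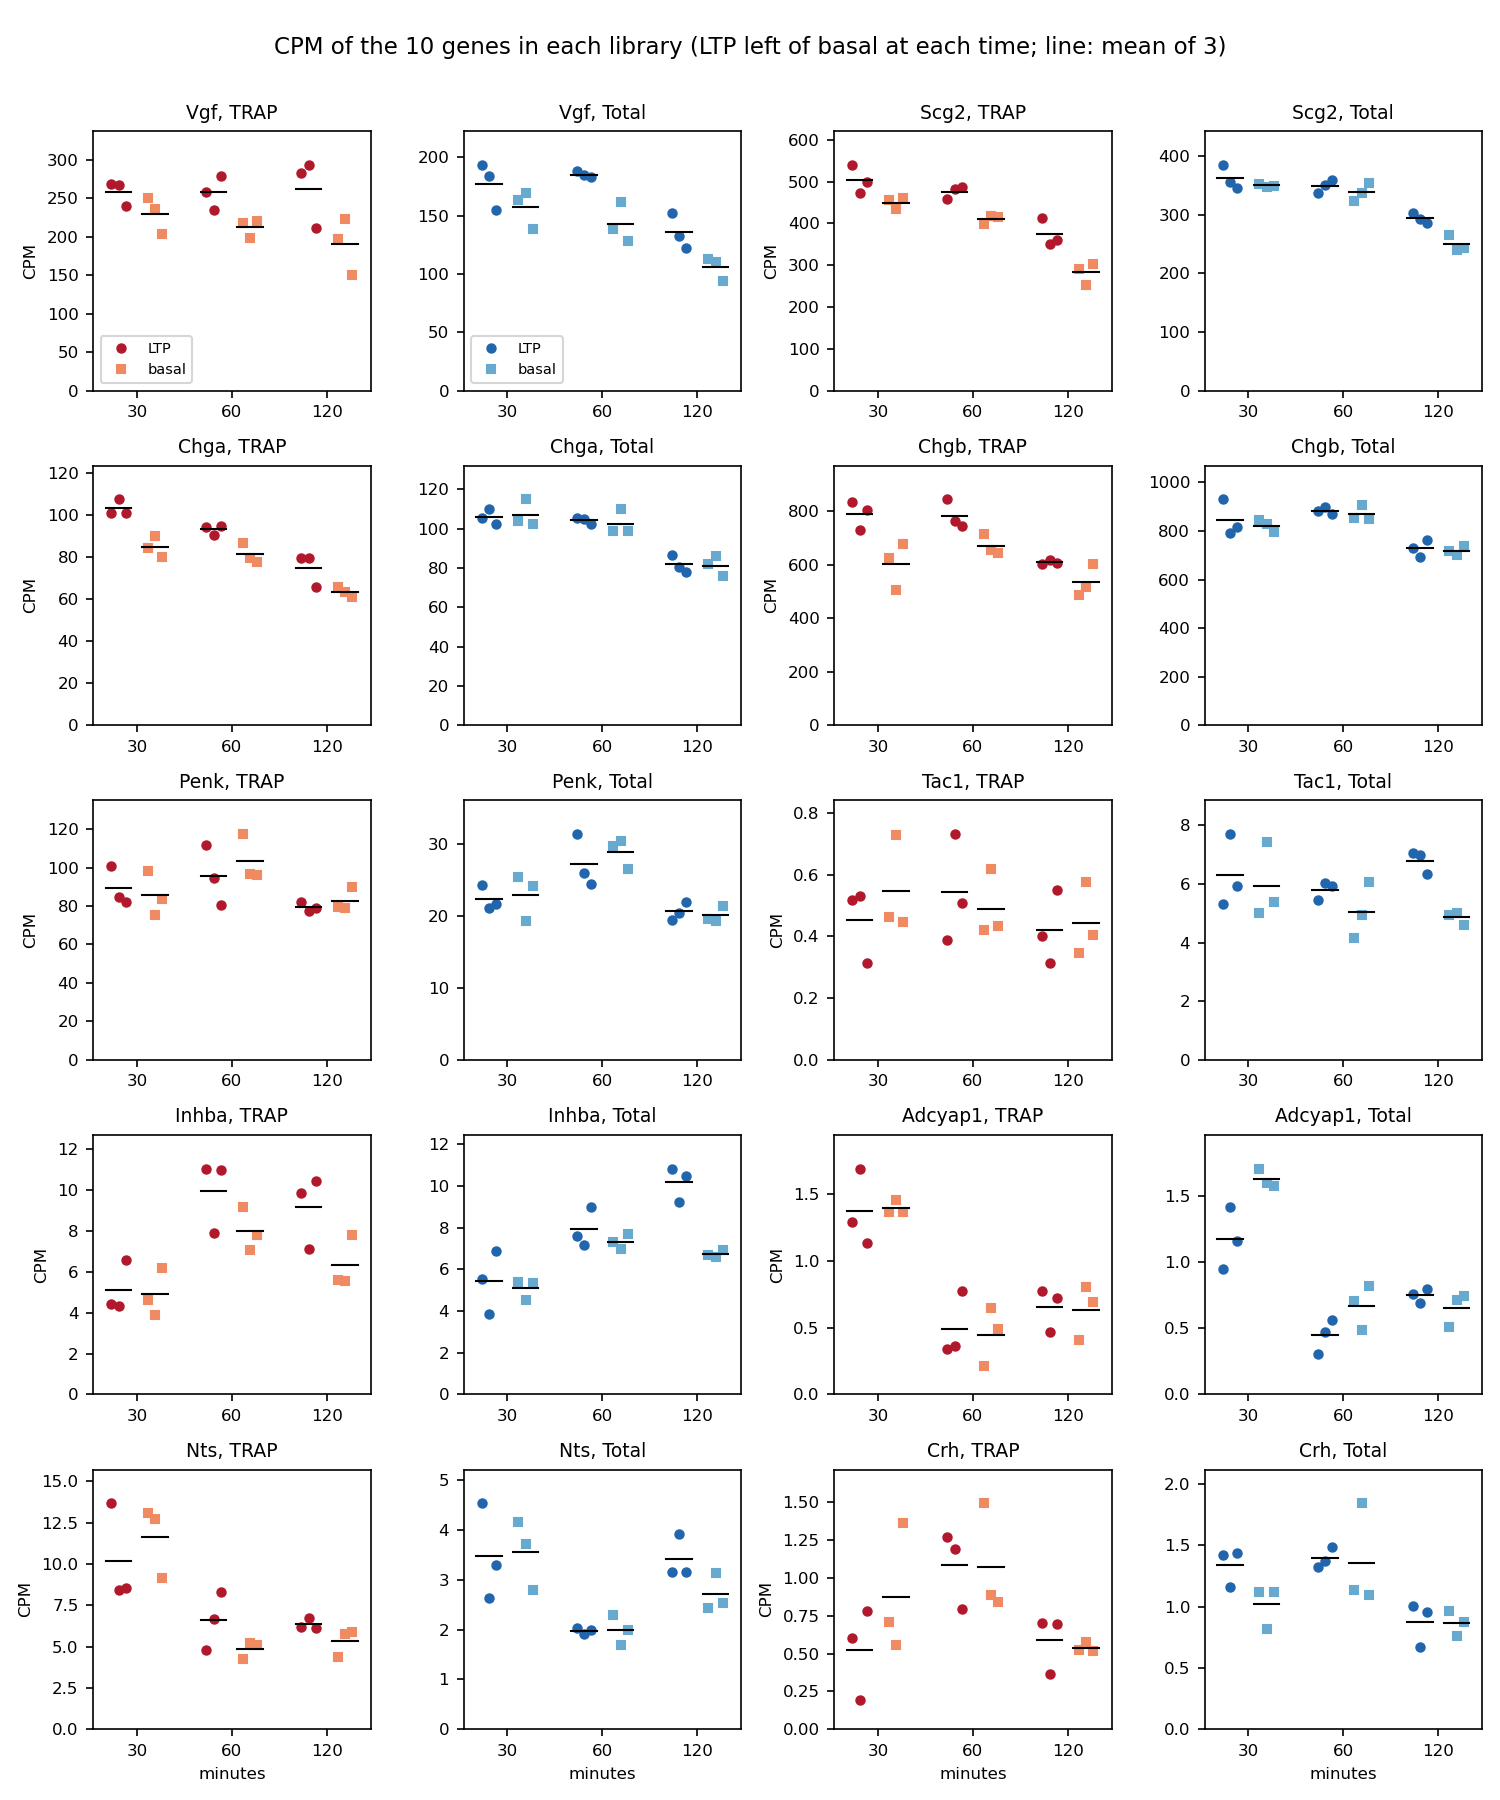
CPM of each of the 10 genes in every library, TRAP panels left of Total panels, with LTP libraries left of basal libraries at 30, 60 and 120 min and a line at the mean of 3. Inhba in Total at 120 min lies at 9.23 to 10.8 CPM in LTP and 6.59 to 6.90 CPM in basal libraries, and Scg2 in TRAP is apart at each time.

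The remaining granins, Scg3, Scg5 and Pcsk1n, were measured beside the 4. None of their 18 tests of LTP against basal was called by edgeR or DESeq2 (3 at an unadjusted p under 0.05), and the most abundant, Pcsk1n, which encodes an inhibitor of the convertase PC1, had log2 fold changes from -0.27 to 0.11. Of 9 genes that mature prohormones and 10 of the dense-core vesicle machinery, none was called in any of 54 and 60 tests by either tool (10 and 6 at an unadjusted p under 0.05). Cpe, the carboxypeptidase that trims peptide precursors and the most abundant of the first list, lay between -0.10 and 0.06. Snap25, the fusion protein and most abundant of the second, lay between -0.16 and 0.04.

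Inhba (chr13:16011851-16031621, plus strand) had 10.8, 9.23 and 10.5 CPM in Total LTP libraries at 120 min, against 6.67, 6.59 and 6.90 CPM in Total basal libraries. The groups were far apart for the spread within them, and the log2 fold change was 0.60 ± 0.08, which is 1.51 times (n = 3 each, adjusted p 4.15e-05). In Total at 60 min it had 7.60, 7.18 and 8.96 CPM in LTP and 7.30, 6.97 and 7.67 CPM in basal libraries (0.11 ± 0.10, adjusted p 1.00), and at 30 min the log2 fold change was 0.09 ± 0.19. In TRAP at 120 min Inhba had 9.85, 7.12 and 10.4 CPM in LTP libraries, against 5.61, 5.53 and 7.78 CPM in basal libraries. The second LTP library lay below the third basal library, and the log2 fold change of 0.51 ± 0.18 was not called (adjusted p 0.272). With the replicate as a block it was 0.54 with an adjusted p of 0.00770, and called, as it was in the joint fit of 12 libraries (0.51) and without replicate 3 of the basal libraries (0.71). At 60 min TRAP libraries held 11.03, 7.87 and 10.9 CPM in LTP slices, against 9.15, 7.05 and 7.77 CPM in basal slices (0.31 ± 0.14, adjusted p 0.401). At 30 min it was 4.42, 4.34 and 6.58 CPM in TRAP LTP, against 4.62, 3.87 and 6.18 CPM in TRAP basal libraries (0.07 ± 0.21).

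Of 17 other genes of the activin pathway (the inhibin subunits, antagonists, receptors and Smads), 14 or 15 were tested in each comparison, and Smad7 was the one called. Smad7, an inhibitory Smad that TGF-beta family signals induce, had 84.5, 76.4 and 79.2 CPM in TRAP LTP libraries at 120 min, against 43.3, 44.2 and 37.1 CPM in TRAP basal libraries. It was called higher in TRAP at 60 min (log2 0.46 ± 0.05, adjusted p 0.00274) and 120 min (0.94 ± 0.09, adjusted p 0.000227) and in Total at 120 min (0.60 ± 0.05, adjusted p 7.70e-08). The most abundant of the list, the type I receptor Acvr1b, had log2 fold changes between -0.26 and -0.05 and was not called. The median over the list stayed between -0.04 and 0.02.

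Tac1 (chr6:7554879-7565834, plus strand), the precursor of substance P and neurokinin A, had 7.04, 6.98 and 6.34 CPM in Total LTP libraries at 120 min, against 4.94, 5.02 and 4.61 CPM in Total basal libraries. The log2 fold change was 0.48 ± 0.09, which is 1.40 times (n = 3 each, adjusted p 0.00195). In Total at 60 min it had 5.46, 6.04 and 5.92 CPM in LTP libraries and 4.14, 4.96 and 6.07 CPM in basal libraries, which overlapped (0.19 ± 0.13, adjusted p 1.00). At 30 min the second replicate was the highest of both groups, with 5.33, 7.70 and 5.92 CPM in LTP and 4.996, 7.42 and 5.39 CPM in basal libraries (0.09 ± 0.17). In TRAP Tac1 lay between 0.312 and 0.731 CPM in LTP libraries and between 0.347 and 0.728 CPM in basal libraries over the 3 times, at log2 fold changes of -0.28 ± 0.33, 0.15 ± 0.31 and 0.01 ± 0.40. The SE of 0.40 at 120 min is close to the change in Total, and a difference of that size in TRAP was not detectable at this depth. In the same Total comparison at 120 min the log2 fold changes of the 10 interneuron markers ran from -0.11 to 0.07, and none was called by edgeR or DESeq2 (1 at an unadjusted p under 0.05). The summed level of these markers was 758 to 821 CPM in LTP and 734 to 797 CPM in basal libraries.

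Penk (chr4:4133531-4138819, minus strand) is the enkephalin precursor and a classic target of CREB. It was not called in any comparison of LTP with basal, and in 3 of 9 TRAP pairs and 4 of 9 Total pairs the LTP library was the higher one. In TRAP at 120 min it had 82.2, 77.7 and 79.0 CPM in LTP libraries, against 79.3, 78.7 and 90.1 CPM in basal libraries. At 60 min the TRAP values were 112, 94.3 and 80.6 CPM in LTP, against 117, 96.7 and 96.4 CPM in basal libraries. Its 6 log2 fold changes lay between -0.12 and 0.06, with SE of 0.06 to 0.11. The exons of Penk overlap those of A830012C17Rik on the opposite strand, and the library kit kept no strand, so that reads of the 2 genes cannot be told apart.

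Nts (chr10:102481756-102490486, minus strand), the neurotensin precursor, had 4.78, 6.67 and 8.32 CPM in TRAP LTP libraries at 60 min, against 4.27, 5.199 and 5.12 CPM in TRAP basal libraries. The lowest LTP library lay within the basal range, and the log2 fold change of 0.44 ± 0.18 was not called (adjusted p 0.3503). With the replicate as a block it was 0.43 with an adjusted p of 0.00445, and called, as it was at 0.63 without replicate 1 of the LTP libraries. At 120 min Nts had 6.19, 6.71 and 6.13 CPM in TRAP LTP, against 4.34, 5.76 and 5.88 CPM in TRAP basal libraries, with no overlap (0.26 ± 0.15, adjusted p 0.524). In Total at 120 min it had 3.16, 3.93 and 3.17 CPM in LTP libraries and 2.44, 3.14 and 2.54 CPM in basal libraries, which just cleared each other (0.33 ± 0.13, adjusted p 0.273). Levels in both treatments were highest at 30 min in TRAP, at 8.40 to 13.7 CPM in LTP and 9.13 to 13.1 CPM in basal libraries. Levels were not tested between times, since reads were single-end at 30 min but paired-end at the later times.

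Adcyap1 (chr17:93199017-93206537, plus strand) encodes PACAP, a peptide that raises cAMP in its target cells. In Total at 30 min it had 0.947, 1.42 and 1.16 CPM in LTP libraries, against 1.71, 1.60 and 1.57 CPM in basal libraries, the one case among the 10 genes and 6 comparisons in which all LTP libraries lay below all basal libraries. All LTP libraries lay below basal for 5.27% of the genes tested in that comparison, for 4.14% and 7.57% in Total at 60 and 120 min, and for 9.76%, 9.11% and 7.23% in TRAP at the 3 times. In Total at 30 min the log2 fold change of -0.47 ± 0.21 was not called (adjusted p 0.649). In Total at 60 min it was -0.58 ± 0.30 (adjusted p 1.00) and at 120 min 0.18 ± 0.23. In TRAP the 3 log2 fold changes lay between -0.04 and 0.15, with SE of 0.20 to 0.44. Its level was also highest at 30 min, at 1.14 to 1.69 CPM in TRAP LTP and 1.36 to 1.46 CPM in TRAP basal libraries, and at 0.337 to 0.772 CPM in TRAP LTP and 0.210 to 0.643 CPM in TRAP basal libraries at 60 min.

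Crh (chr3:19693401-19695396, minus strand), the corticotropin-releasing hormone precursor, was not called in any comparison of LTP with basal. In Total at 30 min it had 1.42, 1.16 and 1.43 CPM in LTP libraries, against 1.12, 0.820 and 1.12 CPM in basal libraries, with no overlap (log2 fold change 0.38 ± 0.22, adjusted p 0.751). All LTP libraries lay above basal for 7.22% of the genes in that comparison. In TRAP at 30 min its widest difference, -0.66 ± 0.45 (adjusted p 0.572), rested on 0.603, 0.193 and 0.783 CPM in LTP and 0.708, 0.556 and 1.36 CPM in basal libraries. The other 4 log2 fold changes lay between 0.01 and 0.14. Of 16 receptors and binding proteins of the peptides, 12 to 15 were tested in a comparison, and none of their 83 tests was called by edgeR or DESeq2 (4 at an unadjusted p under 0.05). With the replicate as a block 2 were called, both lower in TRAP at 120 min: Crhr2, a receptor of the Crh family (-1.03, adjusted p 0.0191, against 0.130 without the block), and C3ar1, which binds a Vgf peptide and is also a gene of microglia (-0.70, adjusted p 0.0540, against 0.337). In those libraries the 8 microglia markers summed to 22.2 to 24.0 CPM in LTP and 24.5 to 31.2 CPM in basal slices, with a median log2 fold change of -0.26, none called by edgeR or DESeq2 (1 at an unadjusted p under 0.05) and none at 0, and their part in the C3ar1 value was not tested. The most abundant, the neurotensin-binding receptor Sort1, lay between 0.00 and 0.15.

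Beyond the 10 genes, 32 precursors of other neuropeptides were in the tables and 13 to 21 of them were tested in a comparison. In Total at 120 min 2 were called higher and none lower. Trh, the thyrotropin-releasing hormone precursor, had 6.60, 7.52 and 5.72 CPM in LTP libraries, against 1.22, 1.57 and 1.10 CPM in basal libraries (log2 2.34 ± 0.14, 5.08 times, adjusted p 8.23e-10). Cartpt, the precursor of the CART peptide, had 1.67, 1.70 and 1.57 CPM in LTP libraries, against 0.814, 1.14 and 1.01 CPM in basal libraries (0.72 ± 0.18, adjusted p 0.0268). In TRAP at 120 min Trh lay below the filter, with 0.577, 0.416 and 0.263 CPM in LTP and 0.174, 0.115 and 0.115 CPM in basal libraries. The most abundant of the list, Cck, the cholecystokinin precursor, lay between -0.05 and 0.06 in the 6 comparisons. At 30 and 60 min none of the list was called by edgeR or DESeq2, and 1 gene had an unadjusted p under 0.05 in each of those comparisons. The block added lower calls of Vip in TRAP at 120 min (-0.86, adjusted p 0.0832) and of Trh in Total at 30 min (-0.68, adjusted p 0.0443).

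In basal slices, TRAP was compared with Total of the same homogenates. At 120 min Rn45s took 40.6 to 61.4% in TRAP and 0.178 to 0.234% in Total basal libraries. Other counts were 10146353 to 16753607 in TRAP and 29936747 to 33709531 in Total, so share and depth cannot be told apart from the population. At 30 min depth was apart too, at 41445942 to 52375072 other counts in TRAP and 18267737 to 29438886 in Total. A ratio of TRAP to Total holds both the amount of an RNA in the tagged neurons and its association with ribosomes, which cannot be told apart. Penk, Nts and Vgf were higher in TRAP at each time, and Tac1 was lower at each time. Of the 10, 3 were higher and 2 lower at 30 min, 3 and 1 at 60 min, and 3 and 3 at 120 min. Over all genes tested, 29.0% were called higher and 32.6% lower at 30 min, 27.0% and 31.1% at 60 min, and 26.8% and 32.4% at 120 min, so that the count of the 10 lies near the background. The 10 markers of excitatory neurons had medians of 1.04, 0.99 and 1.06 on the log2 scale at 30, 60 and 120 min, with 8, 7 and 8 called higher and none lower.

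Penk had 98.1, 75.6 and 83.8 CPM in TRAP basal libraries at 30 min, against 25.4, 19.2 and 24.1 CPM in Total basal libraries. Its log2 fold changes of TRAP over Total were 1.89 ± 0.12, 1.84 ± 0.09 and 2.02 ± 0.08 at 30, 60 and 120 min, or 3.72, 3.58 and 4.07 times (adjusted p 1.63e-07, 3.16e-10 and 9.57e-10). Nts had 13.1, 12.7 and 9.13 CPM in TRAP and 4.16, 3.73 and 2.79 CPM in Total basal libraries at 30 min. Its log2 fold changes were 1.67 ± 0.17, 1.28 ± 0.15 and 0.93 ± 0.16 (adjusted p 2.54e-06, 2.56e-06 and 0.000254). Those of Vgf were 0.53 ± 0.09, 0.56 ± 0.08 and 0.82 ± 0.13 (adjusted p 0.000304, 2.24e-05 and 0.000196).

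Tac1 was the member lowest in TRAP relative to Total. It had 0.464, 0.728 and 0.446 CPM in TRAP basal libraries at 30 min, against 4.996, 7.42 and 5.39 CPM in Total basal libraries. The log2 fold changes were -3.42 ± 0.23, -3.38 ± 0.21 and -3.55 ± 0.21, or 0.0934, 0.0963 and 0.0852 times (adjusted p 3.34e-08, 6.56e-09 and 3.80e-08). The 10 interneuron markers were all called lower in TRAP at each time, with medians of -3.88, -3.55 and -3.52, and their summed level was 70.2 to 86.1 CPM in TRAP and 847 to 935 CPM in Total basal libraries at 30 min. None of the 10 markers was at 0 in every library of a group. Their part in the Tac1 result was not tested.

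Chgb was lower in TRAP at 30 min (-0.46 ± 0.09, adjusted p 0.000851) and 120 min (-0.45 ± 0.07, adjusted p 0.000136), and at 60 min (-0.38 ± 0.06) it was just under the size. The call at 30 min was lost without replicate 2 of the TRAP libraries (-0.34) and that at 120 min without replicate 1 (-0.38), while without replicate 1 Chgb was called at 60 min (-0.42). Chga lay just under the size, between -0.38 and -0.34, at all times, and was called at 120 min without replicate 1 of TRAP (-0.41) or replicate 3 of Total (-0.42). Scg2 had 0.35 ± 0.04, 0.27 ± 0.05 and 0.16 ± 0.07, which is the other direction and under the size. Inhba (-0.09 to 0.12) and Adcyap1 (-0.59 to -0.16) were not called, but Adcyap1 was called lower at 60 min without replicate 2 of TRAP (-0.94) or of Total (-0.78). Crh was called lower at 120 min only (-0.72 ± 0.28, adjusted p 0.0375), a call that DESeq2 did not make (adjusted p 0.123) and that was lost without replicate 1 (-0.70) or replicate 3 (-0.66) of the TRAP libraries. At 30 and 60 min Crh had -0.24 ± 0.34 and -0.35 ± 0.27, and was called lower at 30 min without replicate 3 of TRAP (-0.70) and at 60 min without replicate 1 of TRAP (-0.67).

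**Figure D4:**
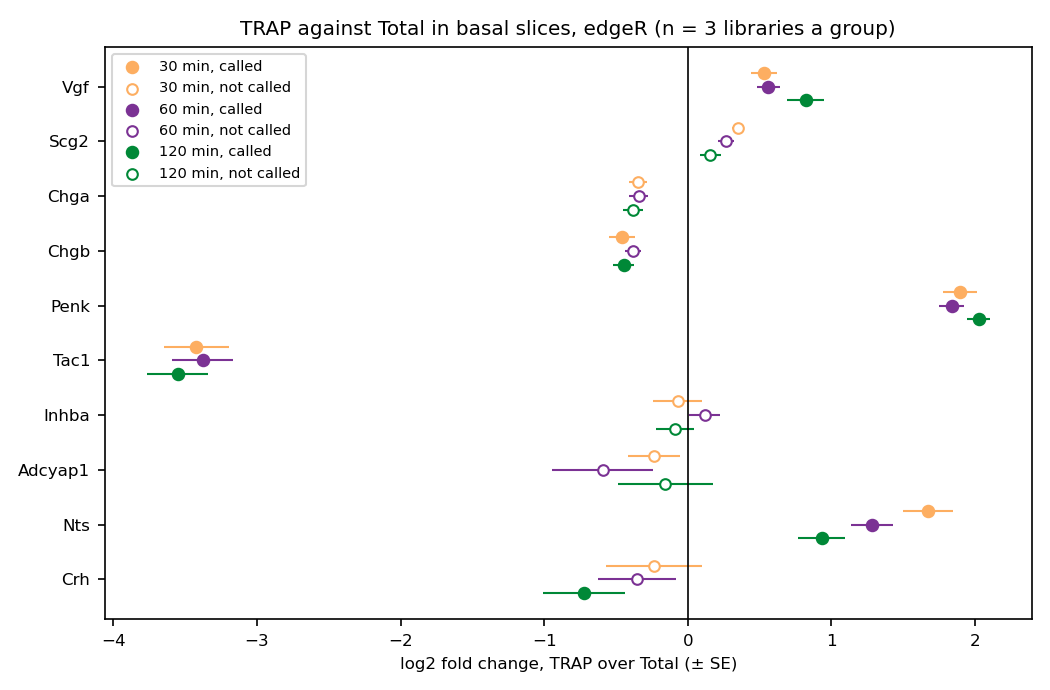
Log2 fold change of TRAP over Total in basal slices with its SE for the 10 genes at 30, 60 and 120 min (edgeR, 3 libraries a group), filled where called. Penk lies at 1.84 to 2.02 and Tac1 at -3.55 to -3.38, with Nts at 0.93 to 1.67.

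The responses to LTP were then compared between TRAP and Total by an interaction term over the 12 libraries of a time. None of the 10 was called at 30, 60 or 120 min by edgeR or DESeq2. Nor was any called with the homogenate that TRAP and Total libraries share as a block, which the main fit leaves out. In the main edgeR fit 2, 3 and 1 had an unadjusted p under 0.05. Over all genes 0.0652%, 0.0764% and 0.247% were called in either direction. Chga had the smallest adjusted p at 30 min, with a response higher in TRAP than in Total by 0.30 ± 0.08 on the log2 scale (adjusted p 0.218). For Chgb the 3 differences, in order of time, were 0.35 ± 0.13, 0.20 ± 0.08 and 0.16 ± 0.09 (adjusted p 0.383, 0.746 and 0.715). The differences of the 10 genes ran from -1.05 to 0.41 at 30 min, from -0.10 to 0.73 at 60 min and from -0.46 to 0.23 at 120 min.

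Responses were also compared between times, over the 18 libraries of a population, in which single-end reads and the 30 min time cannot be told apart. No member was called in any of the 6 comparisons by edgeR or DESeq2. In TRAP 1, 0 and 1 of the 10 had an unadjusted p under 0.05 for 60 against 30 min, 120 against 60 min and 120 against 30 min, and in Total 0, 3 and 2. Over all genes the called shares in either direction were 0.0605%, 0.229% and 0.518% in TRAP and 0%, 0.380% and 0.710% in Total. With the replicate as a block, the Inhba response in Total at 120 min was higher than that at 60 min by 0.48 (adjusted p 0.0149, against 0.649 without the block) and than that at 30 min by 0.53 (0.0213 against 0.417). The second of these was also called without replicate 3 of the Total LTP libraries at 30 min (0.74). In TRAP the blocked Inhba response at 120 min was higher than at 30 min by 0.49 (0.0747 against 0.920), and that of Nts was higher at 60 than at 30 min by 0.62 (0.0694 against 1.00). The blocked response of Tac1 in Total was higher at 120 than at 30 min by 0.40 (0.0855 against 0.630).

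For 6 of the genes, those with the most similar pattern were sought among 13659 genes by Pearson's r over the 18 differences of LTP minus basal log2 CPM (2 populations, 3 times, 3 replicate pairs). The points share animals and homogenates between TRAP and Total, and the values are the highest of many, so that they describe these libraries only. Vgf was closest to Irs2, an insulin receptor substrate (0.892), Nisch (0.872) and Srcin1 (0.863), and Scg2 to the RNA helicase Ddx5 (0.933), the kinase Pim1 (0.919) and the splicing kinase Clk1 (0.911). Inhba was closest to the histone demethylase Kdm6b (0.895), the immediate early transcription factor Egr3 (0.877) and the salt-inducible kinase Sik1 (0.862). The closest genes were Grhl2, Msrb3 and Rab11a for Tac1 (0.772 to 0.878), Egfl6, Kcnk1 and Psd for Penk (0.778 to 0.785), and Xrcc6, Samd11 and Galk2 for Adcyap1 (0.691 to 0.771). Low counts of Tac1 (5 to 313 in a library, the lowest in TRAP) and of Adcyap1 (7 to 76) limit their values. Among the 10 genes themselves the highest r was that of Chga with Chgb (0.81), followed by Inhba with Nts (0.68) and Vgf with Inhba (0.65), and the lowest that of Chgb with Crh (-0.60).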

How the data were processed

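RNA was sequenced from TRAP and Total samples of LTP and basal mini-slices. The authors mapped reads to mm10 with STAR (version not given in the sources used here) and deposited raw counts per gene symbol in a table for each time. The same tables hold normalized counts and the authors' own fold changes, false discovery rates and ranks, none of which was used. Of 24060 rows, 27 held a symbol turned into a date. In all, 25 of these were restored through their gene IDs, and the other 2, holding at most 0.0039% of any library, were dropped. The kit kept no strand. One TRAP basal library is 60 min by its title and 30 min in another label, and was taken as 60 min.

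The test was the robust quasi-likelihood test of edgeR 4.0.16 (R 4.3.3) after filterByExpr and TMM scaling, with Benjamini-Hochberg adjustment over all genes tested in a comparison and the study's criteria. LTP was compared with basal in 6 libraries, TRAP with Total in basal slices in 6, and responses by interaction terms in 12 or 18. CPM used TMM factors over the 12 libraries of a time, and log2 CPM a prior count of 2. The fits were tested on simulated data. Exon lengths and positions came from GENCODE M21 (GRCm38) and promoter windows from RefSeq (GRCm38.p6). Tables and figures were made in Python 3.11.15 (numpy 2.4.6, pandas 2.3.3, matplotlib 3.10.9).

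Replicate numbers pair the samples, because a replicate's slices of both treatments were cut from shared animals, by the series' design text. P-values measure the spread between these pooled samples. After removing group means, libraries of the same number correlated at 0.206 to 0.426 in TRAP (other numbers at most 0.0699) and at 0.108 to 0.308 in Total (at most 0.0352). Fits without the block are the main ones, as the study's methods name none. Alternatives were the block, DESeq2 1.42.0, RLE factors, no filter, Rn45s left out, a joint fit of 12 libraries and leaving out each library. For responses between TRAP and Total the block was the shared homogenate.

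The text names each of the 10 genes, up to 4 called members and the most abundant member of each other list, the 3 genes most like each of 6 members, and Rn45s. Crhr2, C3ar1 and Vip were named after their values were seen. A result that this rule would name is not reported here. The members and lists were chosen with earlier results of these data known.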

Additional observations from a re-analysis of the deposited data

How the results depend on the processing

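Of 95 single-gene results, 95 kept direction and side of the threshold with RLE factors and 95 without Rn45s. These 95 are a part of the results, and most of the 90 log2 differences of the response comparisons are not among them. The run without Rn45s drops only that gene. It cannot part the Rn45s share or depth from the treatment in TRAP at 120 min, nor depth from the treatment in TRAP at 30 min. In basal TRAP against Total it cannot part depth from the population at 30 and 120 min. The calls of Inhba and Tac1 in Total at 120 min held under each alternative run. The replicate block called 1 gene, not 0, in TRAP at 60 min, 2 in TRAP at 120 min, and 1, 1, 1 and 2 in the responses of TRAP at 60 and at 120 against 30 min and of Total at 120 against 60 and against 30 min, and changed no other call of the 10 genes. In TRAP at 120 min DESeq2 called 1 gene, the fit without a filter 1 and the joint fit 2. Signs turned for Nts in Total at 60 min (0.0022 with the block, -0.0027 without) and Tac1 in TRAP at 120 min (-0.024 by DESeq2, 0.01 by edgeR), and the cause was not tested. Leaving out a library gave 0 to 1 genes called in TRAP at 30 min, TRAP at 60 min, Total at 60 min and the Total response of 120 against 30 min, 0 to 2 in TRAP at 120 min, and 1 to 3 lower in TRAP against Total at 30 and at 60 min and 2 to 4 at 120 min. It turned the sign of 35 of 90 uncalled log2 differences of the response comparisons, and of 29 of 90 for LTP against basal and basal TRAP against Total, all uncalled, whose ranges were, in TRAP at 30 min, Penk -0.039 to 0.16, Tac1 -0.42 to 0.0023, Inhba -0.15 to 0.27, Adcyap1 -0.20 to 0.068, and in Total at 30 min, Scg2 -0.0092 to 0.072, Chga -0.055 to 0.029, Chgb -0.045 to 0.080, Penk -0.17 to 0.033, Tac1 -0.080 to 0.29, Inhba -0.14 to 0.29, Nts -0.30 to 0.085, and in TRAP at 60 min, Tac1 -0.12 to 0.35, Adcyap1 -0.34 to 0.51, Crh -0.14 to 0.33, and in Total at 60 min, Chga -0.0011 to 0.079, Nts -0.11 to 0.10, Crh -0.12 to 0.32, and in TRAP at 120 min, Penk -0.094 to 0.0058, Tac1 -0.24 to 0.18, Adcyap1 -0.16 to 0.30, Crh -0.0055 to 0.38, and in Total at 120 min, Chga -0.038 to 0.055, Chgb -0.015 to 0.051, Penk -0.0056 to 0.091, Crh -0.089 to 0.18, and in basal TRAP against Total at 30 min, Inhba -0.27 to 0.084, Crh -0.70 to 0.031, and in basal TRAP against Total at 120 min, Inhba -0.25 to 0.021, Adcyap1 -0.30 to 0.12. Low counts of Crh, Tac1 and Adcyap1 limit their precision.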
